A study of Mus musculus with 60 samples.

Results

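The step from morula to blastula was examined in mouse embryos made by transfer of fibroblast nuclei, called NTM embryos. The comparison set 3 NTM blastulas against 3 NTM morulas over the autosomal genes of a deposited expression table, and 25848 of its 27238 genes lay on autosomes. A gene entered the test when its mean over the 6 libraries was at least 0.5 RPKM (reads scaled to the length of the exons and to the reads of the library), which left 9459 autosomal genes.

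At this step the embryo makes its first separate tissues. The outer cells become the trophectoderm, a polarized epithelium with keratin filaments and tight junctions that pumps fluid into a cavity and later forms the placenta, and the inner cells become the inner cell mass, from which the epiblast and the primitive endoderm arise. Position and polarity are read by the Hippo pathway, and in outer cells Yap1 and Tead4 drive Cdx2, the transcription factor that defines the trophectoderm.

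The study sequenced single embryos of 3 types at 6 stages and the cells that gave the nuclei, in 60 libraries of 20 groups. NTM embryos carried nuclei of cultured embryonic fibroblasts (MEFs) from BDF1 fetuses (C57BL/6 × DBA2) in the cytoplasm of enucleated MII oocytes of BDF1 females. They were activated with strontium chloride, cytochalasin B and Scriptaid, an inhibitor of histone deacetylases, and were cultured in G1 and then G2 medium up to the morula or the blastula. NTC embryos were made and cultured in the same way with nuclei of BDF1 cumulus cells, and in vivo embryos were taken from superovulated C57BL/6 females mated with DBA2 males. Nuclear transfer, activation, culture and the strain of the oocytes together separate NTM from in vivo embryos and cannot be told apart. Each library was 1 embryo chosen by its morphology, with 3 per group, so the p-values measure the spread between these single embryos. A lower level in a whole embryo can mean fewer cells of a type or less RNA per cell, and these cannot be told apart.

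Libraries of the 6 NTM embryos held between 12705669 (morula 1) and 20682897 (blastula 3) reads on genes. The morulas had 10584 to 11396 genes above 0 RPKM, and the blastulas had 13568, 12548 and 11498. The share of reads on the mitochondrial genome was 41.1%, 45.7% and 52.6% in the morulas and 21.5%, 17.7% and 45.8% in the blastulas, so blastula 3 stood with the morulas. Of 28 fibroblast marker genes 4 passed the filter and none was called, and their summed level was 2.11 to 2.45 RPKM in the morulas and 17.5, 6.26 and 2.47 RPKM in the blastulas, against 11961 to 17009 RPKM in the fibroblasts. Col3a1, Acta2 and Pdgfrb were listed at 0 in all 6 embryos. Sums over 16 cumulus cell markers were 1.88 to 6.23 RPKM in the morulas and at most 14.1 RPKM in the blastulas.

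From the morula to the blastula, limma on log2(RPKM + 1) called 348 genes higher (3.68% of the genes tested) and 42 lower (0.444%). A call needed a Benjamini-Hochberg adjusted p under 0.05 together with a log2 change of 1 or more in size. The median change was 2.52 among the genes called higher and -2.80 among those called lower. All 390 had values that did not overlap between the morulas and the blastulas, which was so for 2378 of all tested genes in the upward direction (25.1%) and 296 in the downward direction (3.13%). Of the called genes 364 (93.3%) were protein coding, against 90.3% of the tested ones. Changes are given on the log2(RPKM + 1) scale, which understates those of low genes.

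The whole distribution was shifted. The median change over the 9459 genes was 0.57, and 75.1% of them had a positive change. With median-ratio scaling, which divides each library by the median ratio of its genes to their geometric mean over the libraries, the median was 0.04 and 117 genes were called higher and 125 lower, so that 48.3% of the calls were upward instead of 89.2%. Scaled to the autosomal reads alone, without the mitochondrial ones, the median was 0.28 with 160 genes higher and 86 lower, or 65.0% upward. By all 3 scalings 116 genes were called higher and 42 lower, which were all 42 of the genes called lower with the deposited values. A positive change near or below the general shift can turn negative with another scaling. The median-ratio value is set beside the deposited value for the genes below where it bears on a call.

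**Figure D1:**
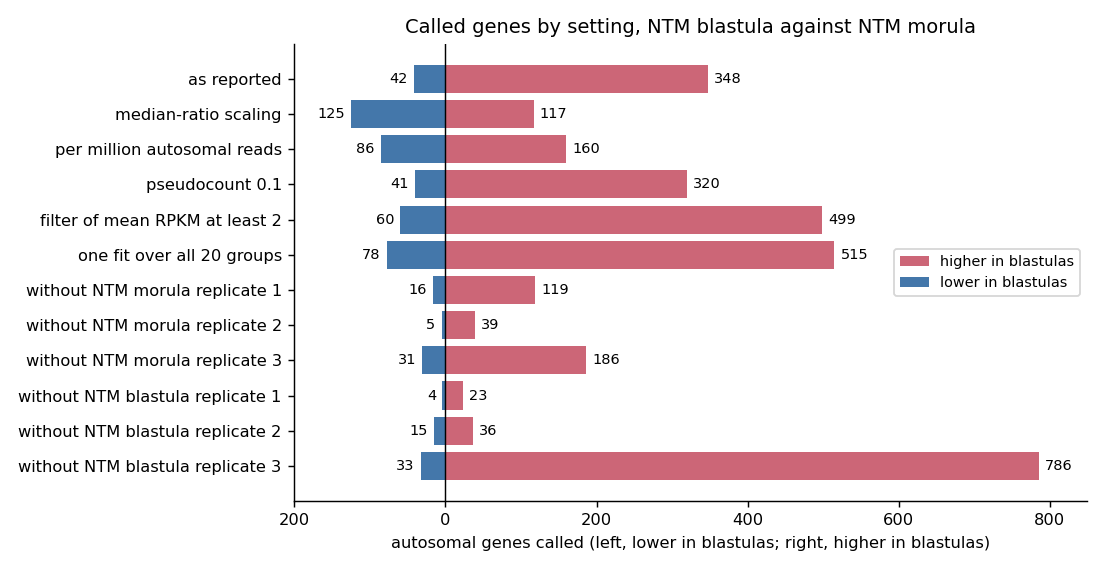
Bars show the number of autosomal genes called higher (to the right) and lower (to the left) in NTM blastulas than in NTM morulas, with the counts printed at the bars. Not every setting is drawn. Among those left out, the absence of a filter on low values gave 0 higher and 0 lower of 16121 genes. Scaling to autosomal reads without blastula 3 gave 13 and 11. The replicate block, robust variance and adjustment over autosomal genes alone, also left out, gave 330 to 354 higher and 41 to 55 lower. The upward count falls from 348 to 23 without blastula 1 and rises to 786 without blastula 3.

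Single libraries moved these counts strongly, as the bars by setting show. Without blastula 1 there were 23 genes higher and 4 lower, without blastula 2 there were 36 and 15, and without morula 2 there were 39 and 5. Without morula 1 the counts were 119 and 16, without morula 3 they were 186 and 31, and without blastula 3, the library with the high mitochondrial share, they were 786 and 33. A total of 20 genes were called in each of these 6 fits, of which 17 were higher and 3 lower. The 17 higher genes were Abhd12, Clic4, Cyp51, Dppa1, Fabp3, Gm12169, Id2, Krt8, Lgals1, Pawr, Pmvk, Prss8, Scd1, Slc22a5, Srebf2, Tpp1 and Tspan8, and the lower ones were Gm5157, Larp4 and Nppb.

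The largest rise was that of Lgals1 (galectin-1, a lectin that binds galactose sugars on glycoproteins; ENSMUSG00000068220, chromosome 15). Its level was 0.787, 0 and 0.357 RPKM in the 3 morulas and 286, 57 and 160.3 RPKM in the 3 blastulas. The lowest blastula was far above the highest morula, and the change was 6.69 ± 0.59 (SE) with an adjusted p of 0.00141 in limma. Fibroblasts held 1380 RPKM of Lgals1, but in NTM embryos from the 4-cell stage to the morula its mean stayed under 1 RPKM, so the blastula level followed a near absence.

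Id2, an inhibitor of basic helix-loop-helix transcription factors and an early marker of outer cells, was at 5.27, 0 and 0.393 RPKM in the morulas and 345, 67.6 and 183 RPKM in the blastulas, a change of 6.31 ± 0.74 (adjusted p = 0.00322, limma). Dppa1, a gene first known from pluripotent cells, went from 0, 0.0331 and 5.34 to 288, 100.1 and 114 RPKM and changed by 6.32 ± 0.72 (adjusted p = 0.00305, limma). In each gene a single morula (morula 1 for Id2, morula 3 for Dppa1) stood above the others, which were near 0, and far below the lowest blastula.

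Another 5 of the leading genes were enzymes, a transporter and a binding protein. Scd1, the desaturase that puts the first double bond into saturated fatty acids, was at 1.45, 0.183 and 0.605 RPKM in morulas and 90.4, 45.7 and 27.5 RPKM in blastulas, a change of 4.89 ± 0.56 (adjusted p = 0.00305, limma). Slc22a5, the carnitine transporter, was listed at 0 in morulas 1 and 2 and at 0.0929 RPKM in morula 3, and stood at 43.7, 15.2 and 14.4 RPKM in the blastulas. Fabp3, which binds fatty acids in the cytosol, rose from 3.86 ± 4.27 (SD, n = 3) to 126 ± 71.3 RPKM and by 4.93 ± 0.63 on the log2 scale. Glrx, a glutaredoxin that reduces disulfides with glutathione, rose by 5.30 ± 0.79, and Tpp1, a lysosomal peptidase, by 4.43 ± 0.53. All 5 had values without overlap.

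Spp1 (osteopontin, a secreted phosphoprotein that binds integrins) and Gjb5 (connexin 31.1, a gap junction protein of trophoblast) were less even. Spp1 had 313, 19.7 and 17.1 RPKM in the blastulas against 0.0955, 0 and 5.41 RPKM in the morulas, and its change of 4.68 ± 1.04 (adjusted p = 0.0318, limma) was called in 2 of the 6 fits without a library. Blastula 1 was far above the other blastulas, and with median-ratio scaling Spp1 was not called. Gjb5 had 110.4, 22.4 and 6.01 RPKM in the blastulas and 0.366, 0 and 0.124 RPKM in the morulas, a change of 4.51 ± 0.83 (adjusted p = 0.0195, limma), and its call was lost in 3 of the 6 fits that left out a library. BC053393 completed the 12 leading genes with a change of 4.87 ± 0.87.

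Genes of the trophectoderm had the highest median change of the 31 gene lists. Of 26 autosomal members 22 were tested and 10 rose (Cdx2, Tfap2a, Krt8, Krt18, Id2, Tspan8, Dppa1, Fabp3, Spint1 and Wnt7b), none fell and 17 were higher in every blastula than in every morula. Their median change was 2.37, against 0.57 over all tested genes. Of all tested genes 3.68% were called higher and 25.1% were higher in every blastula. With median-ratio scaling the median was 1.87 and 8 rose. The number called was 5 without morula 2 or without blastula 1, 6 without blastula 2, 7 without morula 1, 9 without morula 3 and 13 without blastula 3. The summed level of the list was 347 to 400.1 RPKM in the morulas and 1017 to 2339 RPKM in the blastulas.

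Cdx2 was already present before the blastula. It was at 9.75, 9.51 and 35.9 RPKM in the morulas and 75.2, 114 and 81.1 RPKM in the blastulas, a change of 2.48 ± 0.52 (adjusted p = 0.0278, limma). Morula 3 stood above the other 2 morulas and below every blastula, and with median-ratio scaling the change was 1.79 and not called. Across NTM stages the mean of Cdx2 was 0 at the 1-cell and 2-cell stages, 1.36 ± 2.36 (SD, n = 3) at the 4-cell stage and 5.57 ± 2.84 RPKM at the 8-cell stage.

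The keratin pair of simple epithelia rose further. Krt8 was at 4.01, 1.5 and 7.78 RPKM in the morulas and 214, 84.3 and 68.4 RPKM in the blastulas, which gave 4.50 ± 0.58 (adjusted p = 0.00368, limma). Its partner Krt18 went from 11.2, 11.8 and 25 to 305, 109 and 89 RPKM and changed by 3.18 ± 0.53 (adjusted p = 0.0143, limma). In both genes blastula 1 was the highest library, and Krt8 was called in all 6 fits without a library and Krt18 in 4. Tspan8, a tetraspanin of the cell membrane, followed with 4.33 ± 0.56, from 7.14 ± 3.09 to 188 ± 144 RPKM (SD, n = 3).

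Transcription factors of the trophectoderm divided into genes that rose and genes that were not called. Tfap2a (AP-2 alpha) was at 0, 0.0161 and 2.9 RPKM in the morulas and 44.6, 16.4 and 7.48 RPKM in the blastulas, a change of 3.58 ± 0.73 (adjusted p = 0.0248, limma). Its relative Tfap2c, which acts earlier in the embryo, overlapped between the stages, with 16.5, 12.7 and 10.8 and then 12.4, 25.3 and 9.61 RPKM and a change of 0.13 ± 0.49 (median-ratio -0.53). Gata3, a factor that works beside Cdx2, was higher in all 3 blastulas (53.3, 57.9 and 43.1 against 22.1, 13.1 and 33.8 RPKM) at a change of 1.21 ± 0.44 and an adjusted p of 0.134 in limma. Gata2 was listed at 0 in the 3 morulas and at 13, 2.3 and 2.09 RPKM in the blastulas (adjusted p = 0.0588, limma). Eomes, needed for trophoblast stem cells, had a change of 2.36 ± 0.70 (adjusted p = 0.0788, limma) at 18.2, 4.67 and 3.39 RPKM, and Elf5, a later trophoblast factor, reached 3.20 RPKM in blastula 1 and 0.763 and 0.0329 RPKM in the others.

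Tead4, the DNA-binding partner of Yap1 in outer cells, stood at 9.95, 5.3 and 6.62 RPKM in the morulas and 11.8, 9.98 and 2.32 RPKM in the blastulas, with a change of -0.06 ± 0.59. Klf5 was at 159.6, 156 and 115 and 130.4, 166 and 123 RPKM with a change of -0.04 ± 0.34, and Hand1 at 8.08, 1.67 and 0.107 and 0.586, 10.2 and 0 RPKM with a change of -0.20 ± 0.95. Values of the 3 genes overlapped between the stages. Wnt7b, a secreted Wnt ligand, rose by 3.21 ± 0.54 from under 1 RPKM in every morula to 20.3, 9.62 and 9.17 RPKM, and Spint1, a Kunitz-type inhibitor of membrane serine proteases, rose by 2.52 ± 0.60 but was not called with median-ratio scaling (1.87). The prostaglandin E synthase Ptges, the endocytic receptor Lrp2 and Fgfr2 were higher in all 3 blastulas without passing the test, at 1.82, 1.81 and 1.78.

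Among 32 genes known from trophoblast and placenta, 21 of which were autosomal in the table, only 9 passed the filter and Gjb5 alone rose. The lactogen Prl3b1 (change 0.68 ± 0.81) and the placental factor Ascl2 (change 1.64 ± 0.71) overlapped between the stages.

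**Figure D2:**
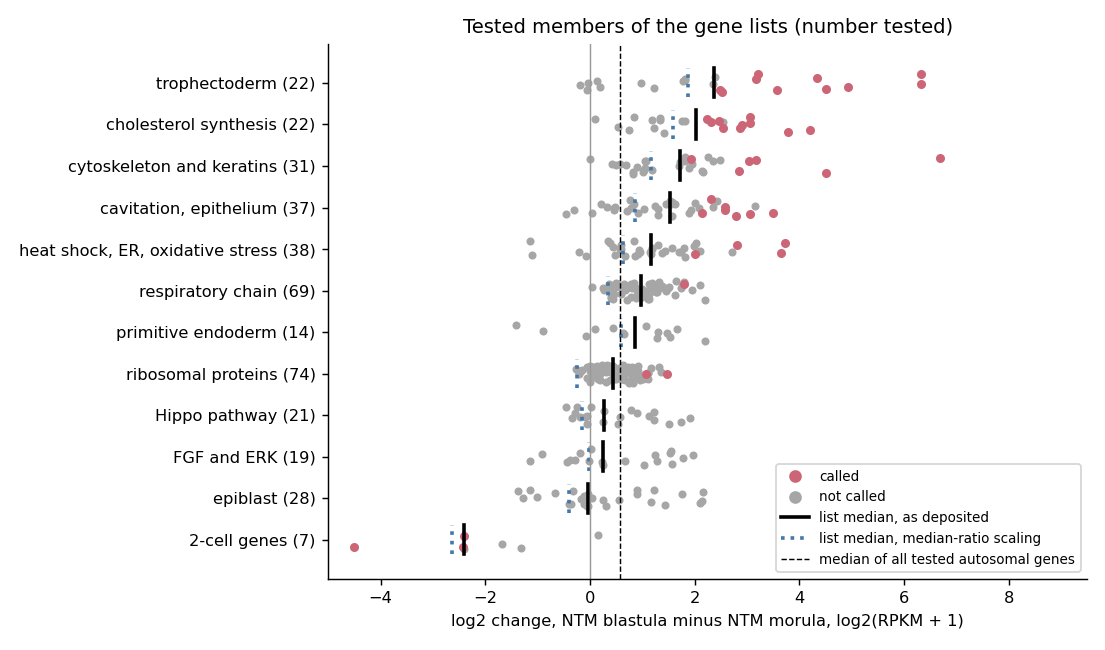
Each point is a tested gene of the named list, placed by its log2 change from NTM morula to NTM blastula on the log2(RPKM + 1) scale, red where called. Solid bars are list medians with the deposited values, dotted bars the medians with median-ratio scaling, and the dashed line is the median of all 9459 genes at 0.57. The trophectoderm and cholesterol lists lie farthest right, with medians of 2.37 and 2.02, and the 2-cell list lies left at -2.40.

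Cavitation needs adhesion, sealed junctions and ion and water transport. Of 43 such genes 37 were tested, 7 rose, none fell and 18 were higher in every blastula, beside 3.68% called higher and 25.1% without overlap over all tested genes, with a median change of 1.52 (median-ratio 0.86, with 4 called). The call count of this list was 0 without morula 2 or without blastula 1, 1 without blastula 2, 3 without morula 1, 4 without morula 3 and 14 without blastula 3.

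The genes that rose code for adhesion and junction proteins. Cdh1 (E-cadherin, the adhesion protein of compaction) was at 7.12, 2.4 and 4.8 RPKM in the morulas and 49.1, 45 and 14.1 RPKM in the blastulas, a change of 2.59 ± 0.58 (adjusted p = 0.0321, limma). Epcam, another epithelial adhesion protein, changed by 3.06 ± 0.60, from 27.5, 8.91 and 53 to 306, 244 and 116 RPKM. Dsc2, a desmosomal cadherin, was listed at 0 in all 3 morulas and at 22, 3.84 and 11.8 RPKM in the blastulas. Desmosomes appear with the blastocyst, and Dsp and Dsg2, also desmosomal, were higher in every blastula with adjusted p of 0.0611 and 0.0539 in limma.

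At the tight junctions F11r (JAM-A) rose by 2.79 ± 0.52, Tjp3 by 2.32 ± 0.52, Cldn7 by 2.57 ± 0.65 and Cldn6 by 2.14 ± 0.53. The last 3 stayed under 16 RPKM, were each called in only 1 of the 6 fits that left out a library, and were not called with median-ratio scaling. The abundant claudin of the list was Cldn4, with 162, 107 and 71 RPKM in the morulas and 449, 452 and 156 RPKM in the blastulas, where blastula 3 lay below morula 1 (change 1.55 ± 0.47, adjusted p = 0.0837, limma).

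The transport genes gave no call. Atp1b1, a beta subunit of the sodium pump, was higher in all 3 blastulas at 3.29, 3.41 and 3.59 RPKM (change 1.29 ± 0.51). Of the water channels, Aqp3 had a change of 0.03 ± 0.59 (median-ratio -0.58), Aqp9 of -0.46 ± 0.62, and Aqp8 was listed at 0 in the 3 morulas and in blastula 3 and at 4.79 and 3.10 RPKM in the other blastulas. Apart from the junctions, the cytoskeleton and keratin list had 6 of 31 tested genes higher, beside 3.68% of all tested genes. Its median was 1.72, against 0.57 over all tested genes (median-ratio 1.17 with 3 called). When a library was left out 2 to 8 were called. The 6 included Tagln2 with 3.03 ± 0.60 and Lgals1, and also Krt8 and Krt18, which are counted in the trophectoderm list as well.

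No gene of the Hippo pathway was called, although without blastula 3 3 were called higher. Of 25 autosomal members 21 were tested, and their median change was 0.26, below that of all genes, and -0.15 with median-ratio scaling. Yap1 was at 6.52, 5.63 and 3.97 RPKM in the morulas and 21.1, 18.1 and 6.47 RPKM in the blastulas (change 1.22 ± 0.54, adjusted p = 0.201, limma). The kinases Lats1 and Lats2 had changes of -0.19 and 0.01, and their cofactors Mob1a and Mob1b of -0.46 and -0.35, all with overlapping values. The members nearest to a call were Vgll3, a Tead cofactor, with 1.73 ± 0.46 (adjusted p = 0.0566, limma), and Tead2 with 1.91 ± 0.51 (adjusted p = 0.0582, limma), both higher in every blastula.

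Markers of the inner cell mass gave no call either, apart from fits without a library, where 3 epiblast and 2 primitive endoderm genes were called higher without blastula 3 and 1 epiblast gene without morula 1. Over 28 tested epiblast genes the median change was -0.04 with the deposited values and -0.41 with median-ratio scaling, against 0.57 and 0.04 over all genes. Nanog, which marks the epiblast, was at 80.6, 10.4 and 10.6 RPKM in the morulas and 78.7, 158 and 72.5 RPKM in the blastulas. Morula 1 was within the range of the blastulas, and the change of 2.14 ± 0.69 had an adjusted p of 0.0988 in limma. Sox2, which becomes restricted to inner cells, was listed at 0 in the morulas and at 4.63, 0.125 and 0.799 RPKM in the blastulas. Pou5f1 (Oct4) was low in both stages, at 9.49, 3.34 and 4.25 and 6.3, 6.12 and 3.18 RPKM, with a change of -0.05 ± 0.54.

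Klf4 and Tbx3, factors of the naive pluripotent state, lay in the other direction. Klf4 was at 214, 283 and 106 RPKM in the morulas and 79.99, 113 and 63.3 RPKM in the blastulas with a slight overlap, a change of -1.15 ± 0.43 (adjusted p = 0.144, limma). Tbx3 had a change of -1.27 ± 0.53 and was lower in every blastula. With median-ratio scaling both were called lower, at -1.85 and -1.92, and they were the only epiblast genes called with that scaling. Dppa3 had 47.9, 56.9 and 24.1 and 48.2, 57 and 45.4 RPKM, and Zfp42 (Rex1) 41.4, 44 and 66.7 and 70.9, 90.9 and 61.2 RPKM, both with overlap.

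Of 26 autosomal primitive endoderm genes 14 were tested and none was called, with a median of 0.85 (median-ratio 0.59). Gata6, the first factor of this lineage, was at 44, 33.5 and 55.2 RPKM in the morulas and 101, 102 and 30.9 RPKM in the blastulas, where blastula 3 lay below every morula (change 0.65 ± 0.50, median-ratio -0.05). Sox17 and Pdgfra, which mark the primitive endoderm once it has separated, did not pass the filter, with blastula means of 0.580 and 0.302 RPKM. Dab2, an endocytic adaptor, had 33.6, 22.7 and 42.7 and then 80.2, 94.5 and 66.3 RPKM without overlap (change 1.29 ± 0.40, adjusted p = 0.087, limma). In the FGF and ERK list, which drives the choice between epiblast and primitive endoderm, 0 of 19 tested genes were called (median 0.26, median-ratio -0.01), and 1 was without blastula 3. The ligand Fgf4 stayed under 1 RPKM in all 6 embryos, and the receptors Fgfr2 and Fgfr1 were higher in every blastula at 1.78 ± 0.60 and 1.54 ± 0.53 (adjusted p = 0.108 and 0.116, limma).

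Cholesterol synthesis was the other list with many calls. Cells make cholesterol from acetyl-CoA through mevalonate, and the transcription factor Srebf2 raises these enzymes when sterols are low. Of 22 tested members 10 rose (among them Acat2, Hmgcs1, Mvk, Pmvk, Mvd, Idi1, Cyp51 and Srebf2), none fell, all 22 had positive changes and 17 were higher in every blastula. Over all tested genes 3.68% were called higher, 75.1% had positive changes and 25.1% were higher in every blastula. The median was 2.02, and with median-ratio scaling it was 1.59 with 6 called and 20 positive. The number called was 3 without morula 2, without blastula 1 or without blastula 2, 6 without morula 1, 9 without morula 3 and 10 without blastula 3.

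Srebf2 was at 0.805, 0.0104 and 0.20 RPKM in the morulas and 34.1, 19.2 and 17.9 RPKM in the blastulas, a change of 4.19 ± 0.52 (adjusted p = 0.0036, limma). It was listed at 0 in all 8-cell NTM embryos, and no earlier NTM stage had a mean above 1 RPKM. Cyp51, the sterol demethylase after the closure of the ring, was at 0.874, 1.98 and 0.452 RPKM and then at 25.3, 28 and 26.2 RPKM, with blastulas that differed by less than 3 RPKM (change 3.77 ± 0.49, adjusted p = 0.00368, limma). Pmvk, the second kinase of the mevalonate pathway, was the most abundant called member, with 14.1, 12.8 and 8.95 RPKM in the morulas and 119.8, 125 and 75.6 RPKM in the blastulas (change 3.05 ± 0.41, adjusted p = 0.00525, limma). The 3 genes were called in all 6 fits without a library.

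Earlier steps of the pathway rose with them. Hmgcs1 went from 3.21, 1.39 and 1.92 to 22.7, 28.4 and 15.1 RPKM (change 2.86 ± 0.49, adjusted p = 0.0161, limma). Mvk changed by 3.06 ± 0.54, Mvd by 2.91 ± 0.60, Idi1 by 2.24 ± 0.49 and Acat2 by 2.46 ± 0.54. With median-ratio scaling Idi1 and Acat2 were not called.

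Hmgcs1 had been high at the start of development, with 201 ± 19.4 RPKM (SD, n = 3) at the 1-cell stage and 57.4 ± 3.16 RPKM at the 2-cell stage, then 2.83 ± 1.52 and 3.29 ± 2.51 RPKM at the 4-cell and 8-cell stages. The blastula mean of 22.1 ± 6.65 RPKM was below the 1-cell and 2-cell levels. Several other enzymes did not pass the test. The change was 1.81 ± 0.56 for Sqle, 1.40 ± 0.55 for Fdft1 and 1.23 for Dhcr7, each higher in every blastula, and Lss stayed under 2 RPKM with overlapping values. Hmgcs1, Mvd, Idi1, Acat2, Dhcr7 and Lss were chosen for mention after their values were seen.

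**Figure D3:**
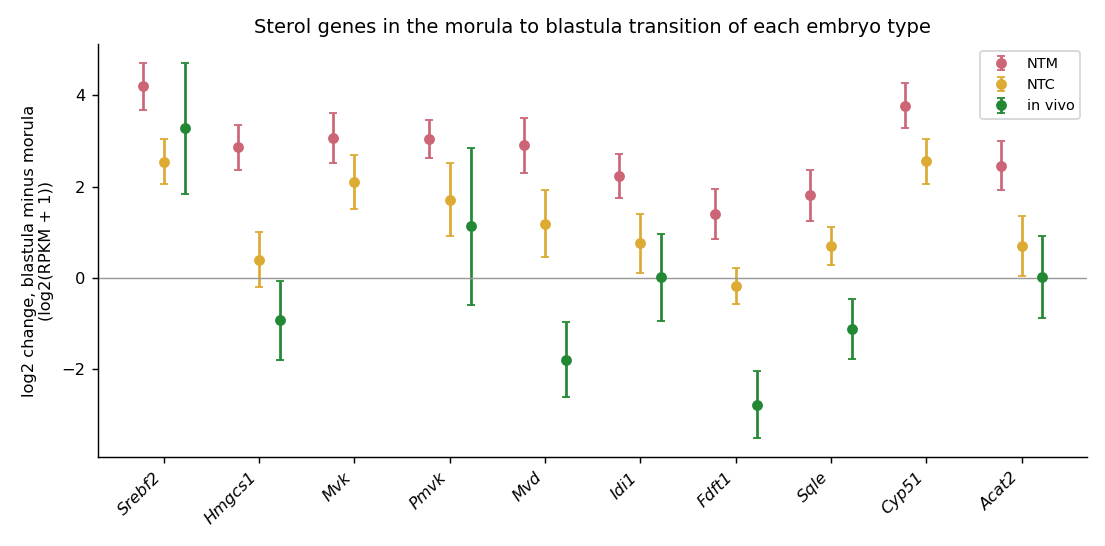
Points are the log2 change from morula to blastula on the log2(RPKM + 1) scale for 10 sterol genes, with bars of 1 standard error, in NTM (red), NTC (yellow) and in vivo embryos (green), each over 3 morulas and 3 blastulas. A missing point is a gene that did not pass the filter in that embryo type, and the NTM point lies above the NTC point for every gene drawn.

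The heat shock, endoplasmic reticulum (ER) and oxidative stress list had 38 tested genes, of which 4 rose and none fell. Over all tested genes 3.68% were called higher. The list median was 1.16, against 0.57 over all tested genes (median-ratio 0.63 with 3 higher and 1 lower). The 4 genes that rose all work in protein folding in the ER. The count of higher genes was 0 without blastula 1 or without blastula 2, 1 without morula 2, 3 without morula 1, 4 without morula 3 and 10 without blastula 3. Calr (calreticulin, a lectin chaperone) was at 21.9, 6.44 and 11.5 RPKM in the morulas and 190.5, 346 and 72.3 RPKM in the blastulas, a change of 3.72 ± 0.60 (adjusted p = 0.0124, limma). Pdia6, a disulfide isomerase, was at 0.946, 0.779 and 2.08 and then 33.4, 40.6 and 13.5 RPKM and changed by 3.64 ± 0.55 (adjusted p = 0.00961, limma). Hspa5 (BiP, the main Hsp70 of the ER) went from 33.2, 9.85 and 39 to 171, 267 and 109 RPKM, a change of 2.80 ± 0.54, and the membrane chaperone Canx changed by 2.01 ± 0.43 (median-ratio 1.31, not called). For these 4 genes blastula 3 was the lowest blastula and lay above every morula. The rise did not hold for every ER chaperone gene. Dnajb9, an Hsp40 partner of the ER that is not in the list, was among the 42 genes called lower.

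The cytosolic chaperones gave no call with the deposited values. Hsp90aa1, the most abundant gene of the list, was at 3487, 3909 and 3499 RPKM in the morulas and 5750.3, 8295 and 3300.1 RPKM in the blastulas with overlap (change 0.57 ± 0.32, median-ratio -0.14), and Hspa8 had a change of -0.21. Dnaja1, an Hsp40 partner, was lower in every blastula (306, 373 and 250.3 against 822, 809 and 466 RPKM) at a change of -1.14 ± 0.34 (adjusted p = 0.0765, limma), and was called lower with median-ratio scaling (-1.85). Mediators of ER stress were not called, with Ddit3 (CHOP) at 1.80, Atf4 at 0.45 and Xbp1 at 1.57. Hspa8, Ddit3, Atf4 and Xbp1 were chosen for mention after their values were seen.

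The promoters of the 4 ER genes that rose shared a sequence feature. They are shown because each held the ER stress response element, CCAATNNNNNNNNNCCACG, through which the unfolded protein response is known to act. It was searched on both strands in the RefSeq windows of 250 bases before to 50 bases after the start of each gene (GRCm38.p6). Capitals mark the match, and Calr carries it on the opposite strand. The windows are, for Hspa5, chr2:34772005-34772063 (+ strand), for Calr, chr8:84847055-84847113 (- strand), for Canx, chr11:50325780-50325838 (- strand) and, for Pdia6, chr12:17266471-17266529 (+ strand), each written 5′ to 3′ on the strand of its gene.
Hspa5: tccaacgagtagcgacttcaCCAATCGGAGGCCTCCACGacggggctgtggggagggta
Calr: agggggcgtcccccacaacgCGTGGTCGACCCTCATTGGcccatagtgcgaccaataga
Canx: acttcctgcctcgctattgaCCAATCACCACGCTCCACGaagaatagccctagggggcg
Pdia6: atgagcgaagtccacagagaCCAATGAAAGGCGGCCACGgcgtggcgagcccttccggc

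The matches lay 65 to 47 bases before the start in Hspa5, 162 to 144 in Calr, 145 to 127 in Canx and 98 to 80 in Pdia6. All promoters held this element in 37 of 27025 cases (0.137%) and those of the tested autosomal genes in 14 of 7001 (0.2%). Of the genes called higher, 273 had a promoter window and 5 held it (1.83%), the fifth being Calr4, and of the 32 tested genes of the stress list with a window 5 did. The fifth of these was Hsp90b1, another ER chaperone, which was higher in every blastula (28.6, 54.3 and 15.6 against 8.08, 5.1 and 6.28 RPKM) at 2.03 ± 0.52 and an adjusted p of 0.0509 in limma. Hsp90b1 and Calr4 were chosen after their values were seen. The element contains a CCAAT box, so it is not independent of that motif, and a match is a description of the letters only. A promoter has the same letters at both stages, so these shares do not bear on the rise from morula to blastula.

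For the cholesterol list the sterol regulatory element TCACNCCAC was searched in the same way. Of 16 tested members with a window only Hmgcs1 held it, 137 to 129 bases before the start at chr13:119690194-119690242 (+ strand, GRCm38.p6), while 1.44% of all promoters did. A CCAAT box was present in 15 of the 16 (93.8%), against 41.1% of all promoters and 42.8% of those of tested genes. The Hmgcs1 window is shown with the element in capitals.
Hmgcs1: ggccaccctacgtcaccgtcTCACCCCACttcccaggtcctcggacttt

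Of 9 trophectoderm genes called higher with a window, 0 held the TEAD motif GGAATG (13.8% of tested genes, and 3 of 17 tested trophectoderm genes, did). The AP-2 motif GCCNNNGGC was held by 4 of the 9 (44.4%), against 28.5% of tested genes and 7 of 17 tested trophectoderm genes (41.2%). The windows are short, and enhancers lie outside them.

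Lysosomal and uptake genes rose in small numbers. In the lysosome and endocytosis list 4 of 37 tested genes were called higher, beside 3.68% of all tested genes (median 1.10 against 0.57 over all, median-ratio 0.59 with 1 higher and 1 lower). These were Laptm4b with 3.73 ± 0.68, Psap (the saposin precursor) with 2.01 ± 0.45, Gm2a (the GM2 activator of ganglioside breakdown) with 1.90 ± 0.46 and Lamp1 with 1.76 ± 0.38. In the nutrient transport list 4 of 25 rose (median 1.33), among them Fabp3, Scarb1 and the amino acid transporter Slc7a6 (1.67 ± 0.40, median-ratio 0.97). The glucose transporter Slc2a3 went from 17.6, 4.43 and 0.984 to 54.7, 63.2 and 12.1 RPKM with overlap (change 2.62 ± 0.81, adjusted p = 0.0878, limma). Leaving out single libraries left 0 or 1 lysosome genes and 1 or 2 transport genes called higher, except without blastula 3, where 7 and 8 were, and without morula 3 a lysosome gene was called lower as well.

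Among genes of energy metabolism Gapdh was the only called member of 16 tested glycolysis genes. It was at 40.8, 11.5 and 44.2 RPKM in the morulas and 452, 252 and 181 RPKM in the blastulas, a change of 3.26 ± 0.54 (adjusted p = 0.0143, limma), and its many processed pseudogenes make the level uncertain. All 69 tested nuclear genes of the respiratory chain had positive changes with a median of 0.98, but 58 were positive with median-ratio scaling (median 0.35) and only Atp5g2 was called, with 1.79 ± 0.42. The 74 tested ribosomal protein genes had a median of 0.44, below that of all genes, which was -0.26 with median-ratio scaling, and 2 were called with the deposited values (Rpl29 at 1.47 and Rpl4 at 1.06) and 0 with median-ratio scaling. The 34 proteasome genes had a median of 0.71 (median-ratio 0.05) and 0 calls. Without blastula 3 there were 3 glycolysis, 13 respiratory chain, 5 ribosomal and 6 proteasome genes called higher, and without any other library 0 of the last 3 lists and 0 or 1 of the first.

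The remaining lists gave few calls, each near or below the background of 3.68% or resting on 1 or 2 genes. Aurkb, the mitotic kinase of the chromosomal passenger complex, was called among 42 cell cycle genes (2.28 ± 0.53) and Rpa1 among 42 replication genes (2.02 ± 0.51). Dgka was called among 47 phosphatidylinositol genes (2.17 ± 0.52), Gpx3 among 15 glutathione genes (2.75 ± 0.56), Id2 among 17 TGF-beta and BMP genes, and Btg2 (3.40 ± 0.69) and Perp (2.19 ± 0.39) among 27 p53 and apoptosis genes. Ooep, a component of the subcortical maternal complex of oocytes, was the only called gene of 15 maternal genes and rose from 1.33 ± 0.73 to 14.7 ± 7.89 RPKM (SD, n = 3; change 2.68 ± 0.54). Of these 8 genes Id2 and Ooep were also called with median-ratio scaling. No gene was called among 16 imprinted genes, 14 genes with imprints that depend on H3K27me3, 31 genes of DNA and histone methylation, 28 of histone acetylation and 43 of splicing. Without blastula 3 between 0 and 3 genes of each of these lists were called higher. In its account of this step the study named Tgfbr1, Kif3a, Tfcp2l1 and Cabin1. That account concerns genes not properly lowered in nuclear transfer embryos and too high in their blastulas, both against in vivo embryos. In NTM embryos the changes were -0.04 ± 0.59 (Tgfbr1), -0.10 ± 0.54 (Kif3a), 0.90 ± 0.46 (Tfcp2l1) and 0.08 ± 0.50 (Cabin1), with adjusted p between 0.265 and 0.969 in limma. Median-ratio values were -0.38, -0.39, 0.26 and -0.20, so that the sign of Cabin1 depended on the scaling. Changes within NTM embryos alone do not test the study's statement.

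With the deposited values fewer genes fell than rose, and each of the 42 was also called lower with the other 2 scalings. Nppb, the precursor of the brain natriuretic peptide (ENSMUSG00000029019, chromosome 4), was at 136, 88.4 and 42 RPKM in the morulas and 4.49, 0.725 and 3.22 RPKM in the blastulas, a change of -4.56 ± 0.58 (adjusted p = 0.00368, limma). It had been listed at 0 at the 1-cell and 2-cell stages and had a mean of 75.1 ± 116 RPKM (SD, n = 3) at the 8-cell stage, so its high level was limited to 2 stages, with 1 of the 3 8-cell embryos far above the others.

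Larp4, a La-related protein that binds mRNA at the poly(A) tail (ENSMUSG00000023025, chromosome 15), was the most abundant gene among the largest falls. It was at 557, 585 and 279.7 RPKM in the morulas and 22, 48.6 and 45.2 RPKM in the blastulas, a change of -3.59 ± 0.43 (adjusted p = 0.00322, limma). Its mean had risen from 22.9 ± 1.87 RPKM at the 2-cell stage to 562 ± 116 RPKM (SD, n = 3) at the 8-cell stage. The lowest morula held more than 5 times the highest blastula.

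Socs3, an inhibitor of JAK and STAT signalling, was at 70.5, 36 and 2.0 RPKM in the morulas and 0, 0.214 and 0.0167 RPKM in the blastulas, a change of -4.22 ± 0.95 (adjusted p = 0.0334, limma), and was called in only 1 of the 6 fits without a library. Morula 3 was close to the blastulas. Ankrd37, an ankyrin repeat protein, changed by -3.93 ± 0.68, from 54.2, 24.1 and 7.78 to 0.596, 1.14 and 0 RPKM, and Iqub changed by -3.05 ± 0.62.

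Another 4 of the 12 leading falls were listed at 0 in all 3 blastulas, so no fold is given. Foxf1, a forkhead factor, had been at 7.14, 11.9 and 2.69 RPKM in the morulas. Tex12, a protein of the synaptonemal complex, had been at 10.3, 17.1 and 1.27 RPKM. Dynap was at 4.04, 14.8 and 8.54 RPKM in the morulas and Fbxw24 at 3.44, 9.17 and 5.8 RPKM, and all 4 genes were under 20 RPKM in every morula.

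Genes of the 2-cell program made up the list with the lowest median, although only 7 of its 24 autosomal members passed the filter. Of 7 tested members Obox6, Tdpoz1 and Usp17lb were called lower and 5 were lower in every blastula. The median change was -2.40 (median-ratio -2.64, with Sp110 called as well). Over all tested genes 0.444% were called lower and 3.13% were lower in every blastula. Without morula 1, morula 3 or blastula 3 a single one was called, and without any of the other 3 libraries 0 were. Obox6, of the family named oocyte-specific homeobox, was at 148, 296 and 19.9 RPKM in the morulas and 6.3, 8.81 and 0.108 RPKM in the blastulas (change -4.50 ± 0.98, adjusted p = 0.0299, limma). Its mean was 0 RPKM at the 1-cell stage. At the 2-cell stage it was only 4.29 ± 6.84 RPKM (SD, n = 3), although the list is named for that stage. At the 4-cell and 8-cell stages its means were 549.8 ± 286 and 509 ± 164 RPKM. Sp110 had a change of -2.40 ± 0.62 (adjusted p = 0.0525, limma). Obox6, Trim43c (-3.93 ± 0.80), Usp17lb, Tdpoz1, Fbxw24 and Gm5157 belong to families of near-identical copies, so their levels are uncertain.

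**Figure D4:**
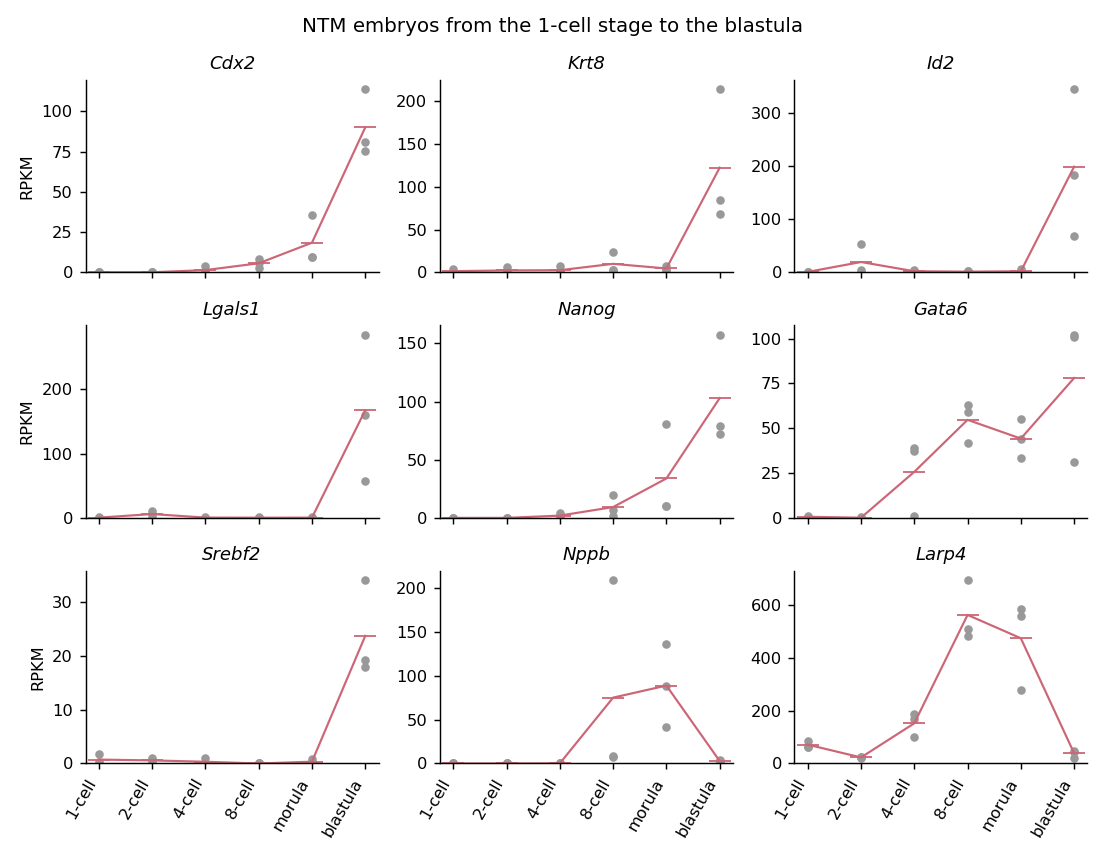
Panels show the RPKM (linear axes from 0) of 9 genes in single NTM embryos from the 1-cell stage to the blastula, with grey points for the 3 libraries of a stage and a red line through the means. Krt8, Lgals1 and Srebf2 have low means up to the morula and are high in the 3 blastulas, Id2 does the same apart from 1 of the 2-cell embryos at 52.4 RPKM, Cdx2 climbs from the 4-cell stage, and Nppb and Larp4 are high at the 8-cell and morula stages and low in the blastulas.

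The called genes were also read in the other embryo types, none of whose libraries entered the NTM comparison. In NTC embryos 443 of 9669 tested autosomal genes were called higher from morula to blastula (4.58%) and 244 lower (2.52%), with a median change of 0.17. By median-ratio scaling they were 402 and 392, and in the fit over all 20 groups 304 and 130. Of the 348 genes that rose in NTM embryos 346 were tested in NTC embryos, and 333 (96.2%) had a positive change there, against 57.4% of all genes. Their median was 1.58 and 130 were called higher. Of the 42 that fell 39 were tested, 0 had a positive change, 21 were called lower, and the median was -2.36.

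In vivo 28 of 8286 genes were called higher (0.338%) and 34 lower (0.41%), with a median change of -0.41. These counts depended strongly on the processing, with 71 higher and 43 lower by median-ratio scaling, where the balance turned, 45 and 126 by autosomal reads, and 580 and 1155 in a single fit over all 20 groups. Of the NTM genes that rose 320 were tested in vivo and 237 (74.1%) had a positive change, against 39.96% of all genes, with a median of 0.97 and 15 called higher. Of those that fell 35 were tested and 1 had a positive change, with a median of -3.01 and 3 called lower. Between 7730 and 7808 genes were above 0 in the in vivo blastulas, fewer than the in vivo morulas (10109 to 11069) and the NTM blastulas, and the part of this in the in vivo changes was not tested.

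The lead genes themselves were followed in each type. Lgals1 was called higher in both and was at 0, 0.0797 and 0.713 RPKM in NTC morulas and 130.1, 103 and 52.6 RPKM in NTC blastulas, and at 1.9, 0 and 0.274 and 97.3, 175 and 191 RPKM in vivo. Krt8 changed by 4.19 ± 0.55 in NTC and 5.62 ± 0.99 in in vivo embryos, and was called higher in both. Larp4 changed by -2.85 ± 0.45 and -4.06 ± 0.72 and Nppb by -2.65 ± 0.59 and -5.84 ± 0.74, all called lower. Cdx2 had changes of 2.16 ± 1.12 in NTC and 0.83 ± 0.90 in in vivo embryos, neither of which was called. For trophectoderm as a list, 8 of 22 tested genes were called higher in NTC embryos (median 1.99) and 4 of 21 in vivo (median 1.36).

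The sterol list had fewer calls in the other embryo types. In NTC embryos 3 of 22 tested members were called higher (median 0.73), and in vivo 0 of 17 (median -0.40), beside 10 of 22 and 2.02 in NTM embryos. Over all tested genes 4.58% were called higher in NTC embryos (median 0.17), 0.338% in vivo (median -0.41) and 3.68% in NTM embryos (median 0.57). The in vivo list thus lay near the values of all in vivo genes. Hmgcs1 was at 12, 11.4 and 4.86 RPKM in NTC morulas and 21.6, 17.9 and 4.12 RPKM in NTC blastulas, a change of 0.40 ± 0.60, and at 0.714, 3.23 and 6.09 and 0.945, 0 and 2.86 RPKM in vivo. A test of the difference between the NTM and NTC changes gave 2.46 ± 0.79 (adjusted p = 0.527, limma interaction), and that between NTM and in vivo 3.79 ± 0.97 (adjusted p = 0.0824), so neither passed. Srebf2 and Cyp51 were also called higher in NTC embryos (2.55 ± 0.49 and 2.56 ± 0.49). Pmvk had a change of 1.71 ± 0.80 there, which was not called.

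Across all genes, the NTM change differed from the in vivo change (limma interaction, adjusted p under 0.05 and a difference of at least 1) for 57 of 9218 genes (0.618%), 50 more positive and 7 more negative in NTM embryos. Of the 50, 45 had a negative in vivo change. Cyp51 was among them, at 0, 0.494 and 0.398 RPKM in in vivo morulas and 0.0721, 0 and 0 RPKM in in vivo blastulas, with a difference of 4.09 ± 0.72 (adjusted p = 0.0342), and so was the squalene synthase Fdft1 with 4.17 ± 0.86 (adjusted p = 0.0495). Among the 7 were Ptp4a1, a protein tyrosine phosphatase, and the proteoglycan Sdc4. Ptp4a1 was at 692, 502 and 342 and 192, 260.5 and 283 RPKM in NTM morulas and blastulas and at 819, 822 and 831 and 5149, 6181 and 4572 RPKM in vivo, a difference of -3.69 ± 0.45 (adjusted p = 0.00376). Cyp51, Fdft1, Ptp4a1 and Sdc4 were chosen here after their values were seen.

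These interaction counts rested on single embryos. Leaving out replicate 1, 2 or 3 of every group left 0 genes, leaving out NTM blastula 1 or 2 left 2 more positive and 1 more negative, and leaving out NTM morula 1, 2 or 3 left 3, 3 and 4 more positive and 1 more negative. Without NTM blastula 3 there were 38 and 2. With median-ratio scaling 11 were more positive and 19 more negative. Between NTM and NTC embryos the interaction called 0 of 9663 genes in limma, where 635 were more positive and 82 more negative at an unadjusted p under 0.05, and 2 more positive ones were called without NTM blastula 3 and by a single fit over all 20 groups.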

How the data were processed

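Single-embryo RNA-seq libraries were analysed from 1 table of RPKM values that the authors deposited per gene and library. The labels name Bowtie 0.12.2 and mm8, while the study's methods name TopHat and HTSeq, so the build is uncertain and no coordinate was taken from the table. RPKM divides by all reads on genes, mitochondrial ones included. Chromosomes were taken from GENCODE M21 (27056 of 27238 genes matched).

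log2(RPKM + 1) was fitted with limma 3.58.1 (R 4.3.3) over the 6 NTM libraries, with genes of mean RPKM at least 0.5 and Benjamini-Hochberg adjustment over all tested genes, and tested on simulated data. The NTC and in vivo transitions were fitted in the same way, and interactions over 12 libraries. All p-values are two-sided. Alternatives were other scalings, pseudocounts, filters, a replicate block and leaving out each library. Named genes were the 12 largest called changes in each direction, up to 4 called and 3 abundant uncalled genes of each list, all genes of the early lineage and Hippo lists, the 8 largest interactions and 4 genes named by the study. The members and lists were chosen with earlier results of these data known.

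Reads per library were estimated from the smallest common step of RPKM × exon length, and 78.6 to 82.4% of low values lay within 0.02 of a whole read in the 6 libraries. A count of 0 allows up to 3 reads, or 0.0725 to 0.118 RPKM on 2000 nt, for counting error only. Promoters are RefSeq windows (GRCm38.p6). Figures used Python 3.11.15 and matplotlib 3.10.9. Some genes of the lists are counted but not reported here by name.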

Additional observations from a re-analysis of the deposited data

Results flagged for a closer look

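Of the 57 genes whose NTM and in vivo changes differed, 14 are given here. In these the change from morula to blastula in NTM embryos differed from the in vivo change by limma's interaction test with Benjamini-Hochberg adjustment, over 3 libraries in each of the 4 groups. Of these, 8 had the largest differences, and Fdft1, Cyp51, Ptp4a1, Ypel5 and Sdc4 were chosen after their values were seen. The in vivo blastulas had 7730 to 7808 genes above 0, against 10109 to 11069 in the in vivo morulas, and the part of this in the differences was not tested. No difference was called when replicate 1, 2 or 3 of every group was left out.

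The largest difference was that of Cthrc1, a secreted protein with collagen repeats, at 6.72 ± 0.78 (SE) with an adjusted p of 0.00376. It was at 70.5, 141 and 89.9 RPKM in the in vivo morulas and 0.043, 0.079 and 0 RPKM in the in vivo blastulas, and at 2.13, 0.563 and 1.93 and 1.62, 1.74 and 1.86 RPKM in the NTM morulas and blastulas, so the in vivo morulas alone were high. Zfp930, a zinc finger gene, differed by 5.83 ± 0.86 (adjusted p = 0.0156), with 40.5, 37.3 and 60.1 and 0.0481, 0.0883 and 0.132 RPKM in vivo. Pink1, the kinase that marks damaged mitochondria, differed by 5.76 ± 0.98 (adjusted p = 0.0301), with 0.143, 0.0874 and 0.0326 RPKM in the in vivo and 16.3, 18.7 and 12.8 RPKM in the NTM blastulas. Pdia5, an ER disulfide isomerase, differed by 5.75 ± 1.17 (adjusted p = 0.0495), and was at 14.5, 3.63 and 5.13 RPKM in NTM morulas and 57.9, 57.4 and 26.9 RPKM in NTM blastulas. In vivo Pdia5 was at 22.7, 17.6 and 32.6 RPKM in the morulas and 0.88, 0 and 9.97 RPKM in the blastulas. Its change was 2.59 in NTM and -3.16 in in vivo embryos, so the in vivo fall was the larger part. The differences were 6.57 ± 0.84 for 1700029P11Rik, 6.04 ± 1.12 for Zfp72, 5.40 ± 1.12 for 3110001I22Rik and 5.39 ± 0.99 for Rabif. The sterol genes Fdft1 and Cyp51 differed by 4.17 ± 0.86 and 4.09 ± 0.72.

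In the other direction, Spry2, an inhibitor of receptor tyrosine kinase signalling, differed by -4.57 ± 0.93 (adjusted p = 0.0495), with 23.3, 64.8 and 102 RPKM in the in vivo and 3.05, 2.87 and 2.74 RPKM in the NTM blastulas. Sdc4 (syndecan 4) differed by -4.30 ± 0.81 (adjusted p = 0.0419) and was higher in the blastulas of both types, with 1958, 5322 and 4671 RPKM in vivo and 256, 167 and 148 RPKM in NTM embryos. Ypel5 differed by -3.99 ± 0.75 (adjusted p = 0.0403) and Ptp4a1 by -3.69 ± 0.45 (adjusted p = 0.00376).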

How the results depend on the processing

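Of 75 called genes that the text names, 48 were also called with median-ratio scaling, 51 with scaling to autosomal reads and 69 with a pseudocount of 0.1, and between 15 (without blastula 1) and 66 (without blastula 3) without 1 library. None changed its sign in these settings. With 3 single embryos a group, a gene near the threshold can be gained or lost by 1 embryo.

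The 348 genes called higher and 42 called lower became 117 and 125 with median-ratio scaling, when the median change of all genes went from 0.57 to 0.043, and 160 and 86 with scaling to autosomal reads (13 and 11 when blastula 3 was also left out, both chosen after seeing the data). Without a filter on low values 0 and 0 of 16121 genes were called. At an unadjusted p under 0.05 there were 1884 and 234, and in a single fit over all 20 groups 515 and 78. Leaving out 1 library gave 23 to 786 higher and 4 to 33 lower.

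The 50 and 7 genes with a more positive or more negative change in NTM than in vivo became 238 and 18 with a pseudocount of 0.1, 11 and 19 with median-ratio scaling, 93 and 19 with scaling to autosomal reads, 553 and 71 in the fit over all groups, 52 and 13 with a minimum of 2 RPKM, and 1542 and 115 at an unadjusted p. They were 21 and 5 with adjustment over autosomal genes alone, 22 and 5 with robust variance, and 0 to 38 and 0 to 2 without single libraries or replicates. Against NTC the 0 and 0 genes became 2 and 0 in the fit over all groups, 0 to 2 and 0 without single libraries, and 635 and 82 at an unadjusted p.

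With the replicate number as a block the NTM comparison called 334 higher and 55 lower, and the in vivo interaction 2 and 1. Deviations of same-numbered morulas and blastulas correlated at -0.035, 0.058 and -0.014, so the samples share only a number in this replicate block, and a sample did not always correlate best with its own number.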

Other observations

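Of the 20 genes called in every fit that left out a library, several belong to none of the lists. Abhd12, a lipase that cleaves lysophosphatidylserine, was at 0.613, 0.277 and 0 RPKM in the NTM morulas and 41.3, 21.9 and 17.1 RPKM in the NTM blastulas (change 4.35 ± 0.53, adjusted p = 0.00322, limma). Prss8 (prostasin), a membrane serine protease of epithelia that is inhibited by Spint1, was at 0.255, 0 and 0 and 20.2, 27.2 and 13 RPKM (change 4.23 ± 0.51). Pawr (Par-4), a regulator of apoptosis, changed by 4.31 ± 0.46, from 1.77, 2.91 and 3.98 to 103, 57.8 and 67.4 RPKM, and Clic4, an intracellular chloride channel protein, by 2.83 ± 0.41, from 10.5, 7.14 and 12.2 to 66.4, 87.1 and 73.3 RPKM. In each of the 4 genes the lowest blastula was several times the highest morula. These genes were chosen after their values were seen.

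The predicted gene Gm12169 was listed at 0 in the 3 NTM morulas and at 92.3, 10.2 and 13.9 RPKM in the NTM blastulas. Gm5157 showed the largest fall of any called gene, from 35.2, 50.6 and 29.7 to 0.0705, 1.3 and 0 RPKM, and near-identical copies make its level uncertain. Among the called genes 12 were listed at 0 in every NTM morula and 10 were listed at 0 in every NTM blastula.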
